A study of Bos taurus with 12 samples.

Results

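The AP-1 subunit genes FOS, FOSB, FOSL1, FOSL2, JUN, JUNB and JUND, together with EGR1 and MYC, were examined in bovine skeletal myoblasts and in the myotubes formed from them. These 9 genes were chosen by symbol, and all 9 were found among the 18436 genes of the deposited expression table. They carried 17 of the 19739 m6A peaks of the myoblasts and 17 of the 20790 m6A peaks of the myotubes. The cells were primary myoblasts from the longissimus dorsi, the long back muscle, of newborn Qinchuan cattle. Myoblasts (GM) were grown to 80% confluence in DMEM/F12 with 20% fetal bovine serum. Myotubes (DM) came from the same culture scheme after 4 days in DMEM/F12 with 2% horse serum, at 100% confluence, so the serum level, the serum species, the time in culture and the cell density differ together between the groups and cannot be told apart. Both media held penicillin and streptomycin, and no gene was altered in either group. From 3 cultures per group, input mRNA and RNA immunoprecipitated (IP) with an m6A antibody were sequenced separately, which made 12 libraries. The methods describe a single newborn donor, so p-values below measure the spread between cultures and not between animals.

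AP-1 is a dimer of basic leucine zipper proteins. JUN proteins pair with each other or with FOS proteins, and FOS proteins need a JUN partner to bind DNA. FOS, FOSB, JUN, JUNB, EGR1 and MYC are classical immediate early genes, switched on by serum and growth factors without new protein synthesis, whereas JUND is expressed more steadily and FOSL1 and FOSL2 follow with a delay. Their mRNAs are mostly short-lived. In muscle precursors, JUN, FOS and MYC are known as part of the proliferative programme that opposes myogenic differentiation. N6-methyladenosine (m6A) is a methyl mark on mRNA that lies mostly near stop codons and in 3′ UTRs and is bound by proteins that influence mRNA stability and translation.

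Expression values are FPKM, fragments scaled by exon length and by the mapped reads of the library, which can be compared between genes. The read counts behind them were not used here, so the counting error of a single value is unknown and the error given is the standard deviation of 3 libraries. Summed over all genes, FPKM ranged from 415740 to 434458 in GM and from 386436 to 390827 in DM. Markers of the muscle lineage were present in both groups. DES, the muscle intermediate filament, stood at 446 to 465 FPKM in GM and 484 to 492 in DM. MYOG, the transcription factor of early differentiation, was already at 190 to 207 FPKM in GM against 226 to 253 in DM, and the embryonic myosin MYH3 at 270 to 275 against 642 to 670. Of the 8 muscle lineage markers, 2 were called higher in DM, MYH3 and CKM, and 3 lower, MYOD1 from a mean of 61.6 to 24.8 FPKM, MYF5 from 11.8 to 2.25 and the satellite cell factor PAX7 from 1.08 to 0.0624. PAX7 reached the mean of 0.5 FPKM needed for testing only through its GM level. The shares of all tested genes were 4.90% called higher and 6.97% called lower. Fibroblast markers were abundant in both groups. The 7 summed to 10284 to 10431 FPKM in GM and to 11635 to 12199 in DM, none of them passed the call used below, and their part in the results was not tested. The 4 endothelial markers together stayed at or below 0.653 FPKM in every library, and the 3 measured macrophage and leukocyte markers at or below 0.496. In such bulk libraries, fewer cells that express a gene and less RNA per cell cannot be told apart.

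EGR1 was the gene of the set that rose in myotubes. The other 7 tested genes did not pass the call, although JUN and FOSL1 were lower in every DM library than in any GM library. Genes were tested where their mean was at least 0.5 FPKM, which held for 8 of the 9 genes and 12302 genes in all, and FOSB fell below that level. Calls needed a change over 1.5-fold and p under 0.05 before adjustment in limma, fitted to log2(FPKM + 1) of the 6 input libraries. By this rule 1 of the 8 genes was called higher and 0 were called lower, beside 4.90% of all tested genes called higher and 6.97% called lower. The median log2 fold change of the 8 genes was -0.05, and that of all tested genes was -0.05 as well. At an adjusted p under 0.05 whatever the size of the change, 1 of the 8 genes was higher and 2 were lower, beside 16.1% and 26.7% of all tested genes, or 42.8% in either direction. The groups did not overlap, whatever the test, for 1 higher gene and 2 lower genes of the 8, beside 21.1% higher, 33.0% lower and 54.1% in all among the tested genes. With only 8 genes, the counts of 1 and 2 by these last measures do not set the group of genes apart from all tested genes. Values given as log2 fold changes are DM minus GM on the log2(FPKM + 1) scale, which understates the change of weakly expressed genes.

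**Figure D1:**
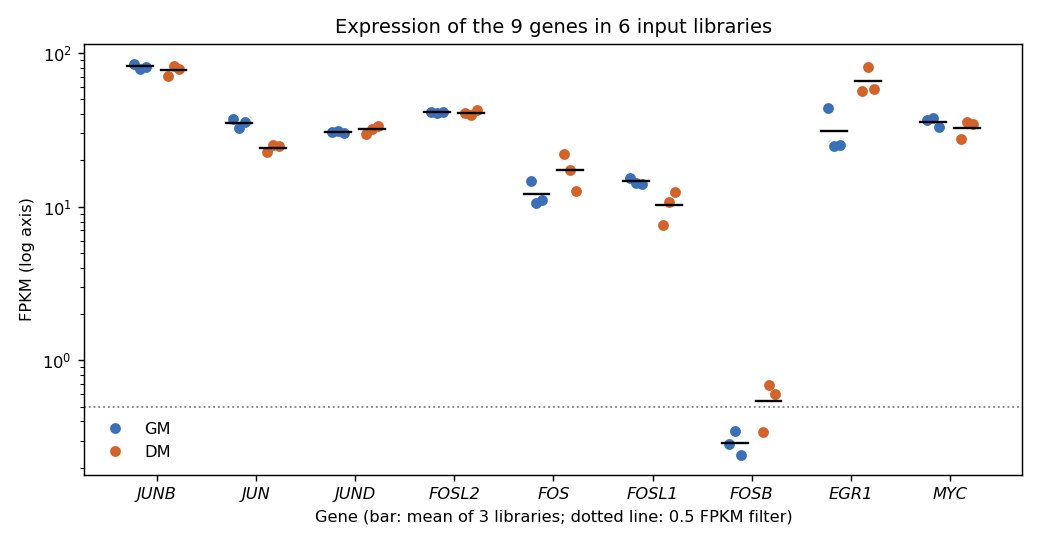
FPKM of the 9 genes on a log axis in the 3 GM and 3 DM input libraries, replicates 1 to 3 from left to right within each group, with bars at the group means and a dotted line at the filter of 0.5 FPKM. EGR1 lies at 24.8 to 43.8 in GM and 56.8 to 80.5 in DM without overlap, JUN and FOSL1 lie lower in DM without overlap, and the groups of the other 6 genes overlap.

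JUN encodes the founding AP-1 subunit and the strongest transactivator of the JUN family. Its level was 37.0, 32.6 and 35.4 FPKM in GM replicates 1 to 3 and 22.6, 25.2 and 24.7 FPKM in DM replicates 1 to 3. Every DM library lay below every GM library. The mean went from 34.99 ± 2.21 (SD, n = 3) to 24.1 ± 1.39 FPKM (SD, n = 3), a ratio of 0.690. The log2 fold change was -0.52 with a standard error of 0.066 and a 95% interval from -0.67 to -0.37, and limma's adjusted p was 0.000428. The size of the difference therefore exceeded the spread between cultures but stayed under the 1.5-fold rule, and JUN was not called. JUN was the gene of this set whose groups differed with the smallest adjusted p.

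JUNB, a JUN protein with weaker transactivation that can restrain JUN, was the most abundant of the 9 mRNAs in both groups. Its level was 85.2, 79.0 and 81.5 FPKM in the GM libraries and 70.5, 82.7 and 78.2 FPKM in the DM libraries. The groups overlapped, with DM replicate 1 lowest of the 6 and DM replicate 2 above a pair of GM libraries. The log2 fold change was -0.09 (95% interval -0.24 to 0.06, adjusted p = 0.321 in limma), and it became 0.04 when values were rescaled to TPM. JUND, the steadily expressed family member linked to slower growth, was at 30.6, 31.2 and 30.0 FPKM in GM and 29.6, 32.1 and 33.6 FPKM in DM. The DM values enclosed the GM values, and the log2 fold change was 0.05 with an interval from -0.08 to 0.18 (adjusted p = 0.524 in limma).

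Within the JUN family, JUN made up a smaller share of the summed FPKM in myotubes. The sum of the 3 genes was 148 ± 5.01 FPKM in GM and 133 ± 9.18 FPKM in DM (SD, n = 3 each). JUN held 24.2, 22.8 and 24.1% of that sum in the GM libraries and 18.4, 18.0 and 18.1% in the DM libraries. The JUN share thus did not overlap between groups. JUNB held 55.5% ± 0.233 in GM and 58.0% ± 0.986 in DM, and JUND 20.8% ± 0.958 and 23.9% ± 0.855, both without overlap. These shares sum to the whole in each library, so they are not independent of each other, and they are given as a description with no test.

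FOS, the prototypical serum-induced partner of JUN, varied more between cultures than the JUN genes did. Its level was 14.8, 10.6 and 11.1 FPKM in GM and 21.9, 17.3 and 12.5 FPKM in DM. The groups overlapped, because GM replicate 1 lay above DM replicate 3, the lowest DM library. The mean was 12.1 ± 2.29 FPKM (SD, n = 3) in GM and 17.3 ± 4.68 FPKM (SD, n = 3) in DM, with a log2 fold change of 0.46 (SE 0.19, 95% interval 0.02 to 0.89, adjusted p = 0.0864 in limma). FOS was not called on these values. It passed the call on TPM, where the log2 fold change was 0.60, without GM replicate 1 at 0.59 and without DM replicate 3 at 0.66. Without DM replicate 1 it was only 0.28 (adjusted p = 0.254 in limma), and without GM replicate 2 it was 0.37.

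FOSL1 encodes FRA1, a FOS-related protein that lacks the transactivation domain of FOS and is induced in growing and migrating cells. Its level was 15.4, 14.3 and 14.1 FPKM in GM and 7.63, 10.8 and 12.5 FPKM in DM. The 3 GM libraries lay close together, whereas the DM libraries were spread out below them. The mean was 14.6 ± 0.702 FPKM in GM and 10.3 ± 2.48 FPKM in DM (SD, n = 3 each), and the log2 fold change of -0.49 (SE 0.15, 95% interval -0.82 to -0.15) had an adjusted p of 0.0274 in limma. The difference was under the 1.5-fold rule, and without DM replicate 3 it reached -0.63 and was called, whereas without DM replicate 1 it was -0.30. The adjusted p of FOSL1 in limma was above 0.05 on TPM at 0.0738, without the low-value filter at 0.0668, and without GM replicate 1 at 0.0798, GM replicate 2 at 0.0552 or DM replicate 2 at 0.0508. An annotated gene on the opposite strand, ENSBTAG00000049377, spans FOSL1 but had means of only 0.553 and 0.365 FPKM, and the libraries were strand-specific.

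FOSL2, which encodes FRA2, was the most abundant FOS family mRNA and hardly differed between groups. Its level was 41.5, 40.8 and 41.2 FPKM in GM and 40.7, 39.5 and 42.5 FPKM in DM. The DM libraries lay on both sides of the GM libraries. The log2 fold change was -0.01 with an interval from -0.12 to 0.10 (adjusted p = 0.899 in limma), and its sign turned to 0.05 with median-ratio size factors, 0.11 on TPM and 0.02 without DM replicate 2. FOSB, the remaining FOS gene, was near the detection limit at 0.284, 0.345 and 0.241 FPKM in GM and 0.341, 0.690 and 0.602 FPKM in DM. With an overall mean of 0.417 FPKM it was not tested in the main comparison. Its log2 fold change was 0.25, and without the filter on low values it had an adjusted p of 0.0859 in limma.

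The FOS family sum differed by less than the spread between libraries. The sum of the 4 genes was 68.2 ± 3.27 FPKM in GM and 69.0 ± 1.34 FPKM in DM (SD, n = 3 each). FOS held 20.5, 16.02 and 16.6% of it in GM and 31.0, 25.4 and 18.4% in DM, so the shares overlapped. FOSL1 held 21.4, 21.6 and 21.2% in GM and 10.8, 15.8 and 18.4% in DM without overlap. DM replicate 1 had the highest FOS and the lowest FOSL1 of the 6 libraries, and DM replicate 3 was the DM library with the lowest FOS and the highest FOSL1. FOSL2 stayed at 60.4% ± 2.40 in GM and 59.3% ± 2.67 in DM, and FOSB at or below 1.01% in every library.

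EGR1 is a zinc finger transcription factor that is induced by serum and ERK signalling through serum response factor. Its level was 43.8, 24.8 and 25.2 FPKM in GM and 56.8, 80.5 and 58.5 FPKM in DM. All 3 DM libraries were above all 3 GM libraries, although GM replicate 1 stood well above the other GM libraries. The mean rose from 31.3 ± 10.8 to 65.3 ± 13.2 FPKM (SD, n = 3 each), 2.09 times the GM level. The log2 fold change was 1.07 (SE 0.22, 95% interval 0.56 to 1.58) with an adjusted p of 0.00510 in limma. Leaving out each library in turn gave log2 fold changes from 0.91 to 1.33, and EGR1 was called under every alternative that was run. Among all tested genes, the absolute log2 fold change of EGR1 was at percentile 96.4. By level, EGR1 moved from the fifth to the second place among the 9 genes, and in DM it overlapped only with JUNB.

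MYC, the growth-promoting transcription factor that dimerises with MAX, stayed at similar levels in both groups. It was at 36.6, 37.7 and 33.1 FPKM in GM and 27.5, 35.4 and 34.6 FPKM in DM. Only DM replicate 1 lay below the GM range. The mean was 35.8 ± 2.40 FPKM in GM and 32.5 ± 4.37 FPKM in DM (SD, n = 3 each), and the log2 fold change of -0.14 had an interval from -0.37 to 0.09 (adjusted p = 0.289 in limma). This interval leaves out a change of 1.5-fold in either direction on this scale.

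**Figure D2:**
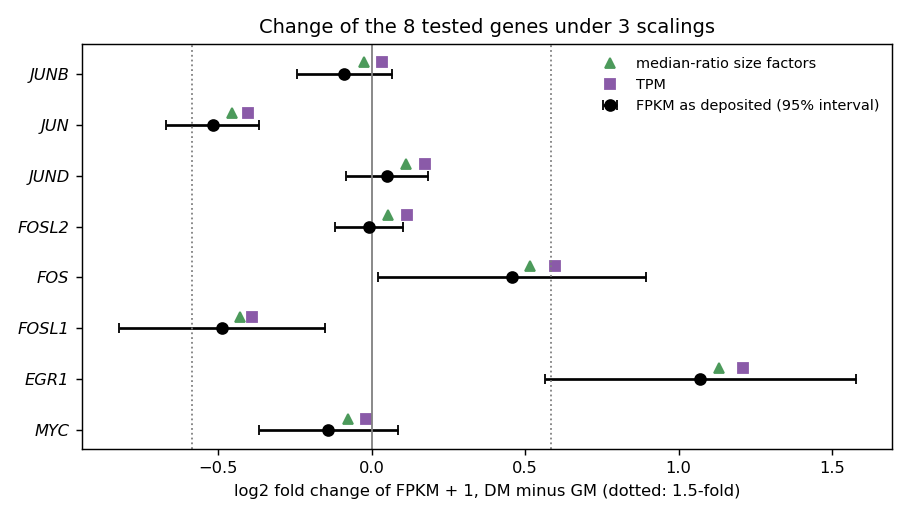
Log2 fold change of FPKM + 1, DM minus GM, of the 8 tested genes with 95% intervals from limma (black), and the estimates after median-ratio size factors (triangles) and conversion to TPM (squares), with dotted lines at 1.5-fold. EGR1 lies at 1.07 and JUN at -0.52, and JUNB and FOSL2 change sign between scalings, JUNB from -0.09 to 0.04 and FOSL2 from -0.01 to 0.11 on TPM.

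The FPKM sum was lower in every DM library than in any GM library, so the scaling of the libraries bears on small differences. Conversion to TPM moved the median log2 fold change of all tested genes by 0.11, from -0.05 to 0.06, and median-ratio size factors moved it to 0.00. Relative to the median of all genes, EGR1 was at 1.12 on FPKM, 1.13 with size factors and 1.15 on TPM. JUN was at -0.46 on each of the 3 scales relative to that median, and FOS was at 0.51, 0.52 and 0.54. MYC was at -0.09, -0.08 and -0.08, JUNB at -0.04, -0.03 and -0.02, and FOSL2 at 0.04, 0.05 and 0.06.

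In GM the 9 genes ordered by mean FPKM as JUNB, FOSL2, MYC, JUN, EGR1, JUND, FOSL1, FOS and FOSB. The ranges of MYC and JUN, of JUN and EGR1, of EGR1 and JUND, and of FOSL1 and FOS overlapped, so those neighbours were not separated beyond their spread. In DM the order was JUNB, EGR1, FOSL2, MYC, JUND, JUN, FOS, FOSL1 and FOSB, with overlap between JUNB and EGR1 and between MYC and JUND. The ranges of FOS and FOSL1 only just missed each other in DM, both meeting at 12.5 FPKM. Among all 18436 genes, tested or not, JUNB stood at the 96.0th percentile of level in GM and the 96.1st in DM, and EGR1 at the 88.8th and the 95.2nd.

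Some libraries of a group were the highest for more of these genes than others. Over the 24 tested genes of this set and of the other immediate early genes described below, GM replicate 1 was the highest GM library for 14 genes and DM replicate 2 the highest DM library for 12. DM replicate 1 was highest for only 3 genes. Median log2 deviations from the group mean were 0.045 in GM replicate 1, 0.070 in DM replicate 2 and -0.095 in DM replicate 1. The share of all tested genes highest in each library was not computed, so the counts are a description only. EGR1, FOS, FOSL1, FOSL2, JUN and JUNB all had their highest GM value in replicate 1. For FOSL2 that value was only 0.011 above the group mean on the log2 scale. In DM, JUN, JUNB, EGR1 and MYC were highest in replicate 2, FOSL1, FOSL2 and JUND in replicate 3, and FOS in replicate 1.

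The m6A data consist of 1 list of exomePeak peaks per group, called on the 3 cultures pooled. Each peak has 1 fold enrichment, the ratio of IP over input signal, with no replicate error, so the comparisons that follow carry no test. All 9 genes had at least 1 peak in both lists. Among all tested genes, 70.9% had a GM peak, 78.7% a DM peak and 68.6% a peak in both. A GM and a DM peak were taken as a pair where exactly 1 peak of each list overlapped by at least 1 exonic base on the same strand. The 9 genes gave 8 such pairs, of which 2 were over 1.5 times higher in DM and 0 over 1.5 times lower, beside 14.2% and 10.8% of all 10239 pairs, or 25.0% in either direction. The share of the 9 genes, 2 of 8, was that of the background, but several of these pairs belong to FOSB, which is below the expression filter. The 8 tested genes alone gave 5 pairs from 5 genes, 1 higher and 0 lower. With so few pairs, these shares do not set the genes apart from all pairs. Positions below are in the ARS-UCD1.2 assembly, and regions are named as in the authors' annotation of each peak.

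**Figure D3:**
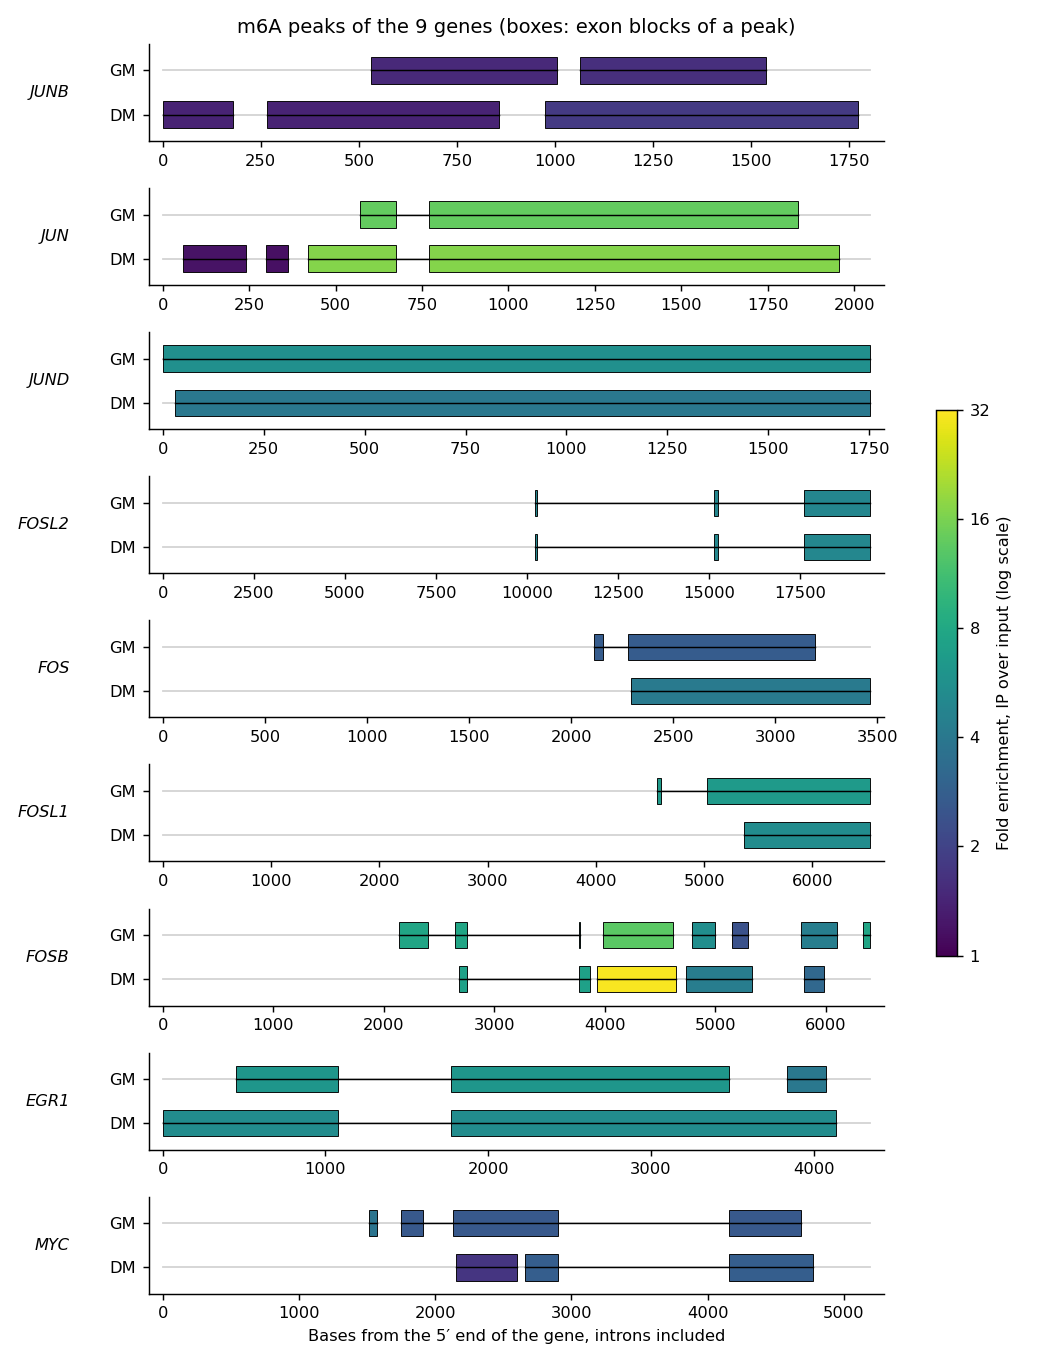
m6A peaks of the 9 genes in GM (upper line of each panel) and DM (lower line), plotted as bases from the 5′ end of the gene with introns included, where boxes are the exon blocks of a peak, thin lines join blocks of the same peak and the colour is the fold enrichment on a log scale. FOSL2 has the same blocks in both lists, EGR1 has 2 peaks in GM and 1 longer peak in DM, and the brightest boxes are those of JUN and of the second FOSB peak.

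JUN carried the most enriched peak among the well-expressed genes of the set. In GM, 1 peak of 1170 exonic bases at chr3:87266532-87267797 on the plus strand, annotated to the 3′ UTR, had a fold enrichment of 14.0. In DM its partner at chr3:87266382-87267917 covered 1440 exonic bases with a fold enrichment of 16.9. The ratio of 1.21 was under the 1.5-fold rule, and both peaks were above the 96th percentile of their list. Peak blocks of both lists skip the same 96 bases of JUN. DM had 2 further short peaks towards the 5′ end, at chr3:87266022-87266202 in the 5′ UTR and at chr3:87266262-87266322 in an exon, with fold enrichments of only 1.19 and 1.16, below the 2nd percentile. Together the peaks covered 57.2% of the 2046-base JUN gene in GM and 82.2% in DM.

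JUNB, the most abundant mRNA of the set, had the weakest m6A enrichment. GM held 2 peaks, at chr7:12736889-12737361 and chr7:12736357-12736830 on the minus strand, with fold enrichments of 1.5 and 1.6. DM held 3 peaks with fold enrichments of 1.39, 1.39 and 1.79, from chr7:12737716-12737893 in the 5′ UTR to chr7:12736121-12736918 in the 3′ UTR. All 5 values were at or below percentile 18.3 of their lists. Peaks covered 947 bases of the 1803-base JUNB gene in GM and 1568 in DM. Since peaks overlapped several to several, JUNB gave no 1-to-1 pair.

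JUND was covered by a single peak over almost its whole gene in both groups. The GM peak at chr7:4912209-4913960 spanned all 1752 bases of the gene on the plus strand, and the DM peak at chr7:4912239-4913960 spanned 1722. Fold enrichment was 5.63 in GM and 3.99 in DM, which is 1.41-fold lower and within the 1.5-fold rule. The authors' annotation names the GM peak by the 5′ UTR and the DM peak by the 3′ UTR, although the peaks differ by only 30 bases at the 5′ end, so a change of region in that column is not a change of position.

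FOS had 1 peak in each list, towards the 3′ end. The GM peak at chr10:86490756-86491838 on the plus strand covered 960 exonic bases in 2 blocks and had a fold enrichment of 2.69. The DM peak at chr10:86490939-86492108 covered 1170 bases in 1 block, ran to the annotated end of the gene and had a fold enrichment of 4.14. Both were annotated to the 3′ UTR and shared 900 bases. The ratio of 1.54 just passed the 1.5-fold rule, but it was 1.46 after centring on the median of all pairs, where DM values are higher by 0.07 on the log2 scale. The mRNA of the gene did not pass its own call, as given above.

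FOSB gave the largest ratio of the set at the lowest expression. Its second GM peak, at chr18:53078875-53079501 in the 3′ UTR, had a fold enrichment of 13.1, and its DM partner at chr18:53078816-53079531 had 30.9. The ratio was 2.36, or 2.24 after centring. The input level of the gene was 0.290 FPKM in GM and 0.545 FPKM in DM on average, and the peak p-values of 2e-06 and 5e-09 were weaker than those of the main JUN peaks, which are listed at 0, so the ratio rests on little input signal. FOSB had 6 peaks in GM and 4 in DM, of which 5 and 3 had a false discovery rate under 0.05. Its other pairs had fold enrichments of 7.62 and 7.19 and of 4.36 and 3.19, both lower in DM and within the 1.5-fold rule.

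The FOS-related genes FOSL1 and FOSL2 each had 1 peak per list that reached the annotated end of the gene. The FOSL2 peak had identical bounds in GM and DM, chr11:71340649-71349839 on the minus strand with 1970 exonic bases in 3 blocks, and fold enrichments of 4.93 and 5.00. The FOSL1 peak covered 1551 exonic bases at chr29:44006997-44008966 in GM and 1164 at chr29:44006997-44008160 in DM. Its fold enrichment was 6.53 in GM and 5.35 in DM, a difference of 1.22-fold. The whole DM peak of FOSL1 lay within the GM peak.

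EGR1 had broad m6A coverage that was longer in DM. In GM, a peak of 2337 exonic bases at chr7:49826410-49829437 on the plus strand had a fold enrichment of 6.18, and a second of 240 bases at chr7:49829797-49830036 had 3.98. In DM, 1 peak at chr7:49825961-49830096 with a fold enrichment of 5.31 started at the annotated 5′ end of the gene and took in both. It covered 3445 exonic bases, against 2577 in GM, and was longer than 99.3% of all DM peaks. Because 1 DM peak met 2 GM peaks, EGR1 gave no 1-to-1 pair, and the DM value lay between the GM values. The mRNA at this gene rose 2.09 times, and the fold enrichment in DM was 0.859 times that of the main GM peak.

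MYC had 2 peaks in each list, divided differently along the gene. In GM, a peak of 61 bases at chr14:12656795-12656855 had a fold enrichment of 3.81 and had no counterpart in DM. A second GM peak of 1460 exonic bases at chr14:12653679-12656616 had a fold enrichment of 2.61. The same stretch held 2 DM peaks, at chr14:12655769-12656216 with 1.70 and at chr14:12653590-12655709 with 2.78. Covered bases were 1521 in GM and 1312 in DM, of which 1223 were shared. The larger overlap of the second GM peak was with the DM peak of 2.78, a ratio of 1.07.

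**Figure D4:**
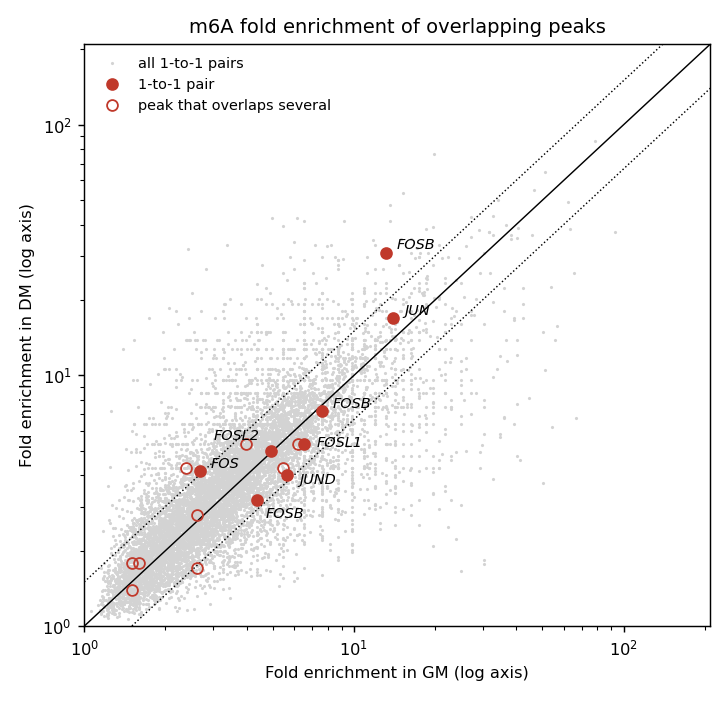
Fold enrichment of overlapping m6A peaks in GM (horizontal) and DM (vertical) on log axes, with all 10239 1-to-1 pairs in grey, the 8 pairs of the 9 genes as filled points, their overlaps that involve several peaks as open points, a line of equality and dotted lines at 1.5-fold. The second FOSB peak at 13.1 and 30.9 and the FOS peak at 2.69 and 4.14 lie above the upper dotted line, and JUN at 14.0 and 16.9 lies between the lines.

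Across the 9 genes, the order by m6A enrichment was not the order by mRNA level. JUNB had the highest mRNA level with a highest fold enrichment of 1.79, and FOSB the lowest mRNA level with 30.9. JUN and MYC had GM levels of 34.99 and 35.8 FPKM, but their highest GM fold enrichments were 14.0 and 3.81. The MYC value is that of its peak of 61 bases, and its main GM peak of 1460 exonic bases had 2.61. Covered length was greater in DM for FOS, JUN, JUNB and EGR1, smaller for FOSB, FOSL1, JUND and MYC, and equal for FOSL2. The median exonic length of all peaks was 352 bases in GM and 421 in DM.

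Genes that act with, upstream or downstream of the set were described with 8 lists chosen by function. The AP-1 partner list holds other basic leucine zipper proteins that can dimerise with JUN or FOS. Of its 9 tested genes, 0 were called in either direction, beside 4.90% of all tested genes called higher and 6.97% called lower. The median log2 fold change was 0.26 beside -0.05 for all genes. On TPM 3 genes of the list were called higher, including MAF and MAFF at 0.69 and 0.72. With a pseudocount of 0.1 in place of 1, 2 were called higher. With a pseudocount of 0.5, with size factors or without DM replicate 1, it was 1. The DM means of MAF and MAFF were 1.62 and 1.58 times their GM means in FPKM, so the 0 calls depend on the scale used. ATF3, a stress-induced partner of JUN, was at 18.9, 17.6 and 19.7 FPKM in GM and 13.04, 13.7 and 16.3 FPKM in DM. The groups did not overlap, and the log2 fold change of -0.37 (adjusted p = 0.00940 in limma) was under the 1.5-fold rule.

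Other immediate early genes were called in both directions. Of 16 tested, 5 were called higher and 2 lower, beside 4.90% and 6.97% of all tested genes, with a median log2 fold change of 0.27 against -0.05 for all genes. EGR2, a close relative of EGR1, was at 1.56, 1.00 and 1.09 FPKM in GM and 3.97, 8.16 and 6.11 FPKM in DM. Every DM library was above every GM library, and the mean rose 4.99 times with a log2 fold change of 1.64 (adjusted p = 0.000398 in limma). EGR3 was at 0.751, 0.614 and 0.688 FPKM in GM and 0.666, 1.67 and 1.82 FPKM in DM, where replicate 1 remained at the GM level. It did not pass the call (log2 fold change 0.46, adjusted p = 0.0767 in limma), but passed it on TPM at 0.73. EGR4 was not analysed here.

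The nuclear receptors NR4A1 and NR4A3, which are induced by many of the same signals, rose from 1.11 ± 0.0849 to 2.50 ± 0.382 FPKM and from 0.775 ± 0.135 to 2.20 ± 0.356 FPKM (SD, n = 3 each). SGK1, a serum- and glucocorticoid-regulated kinase, rose from 33.9 ± 3.38 to 64.3 ± 6.64 FPKM. CCN2, a matricellular growth factor, rose from 813 ± 17.8 to 1347 ± 109 FPKM. IER3, a survival-related early gene, fell from 119 ± 10.6 to 59.0 ± 2.26 FPKM, with a log2 fold change of -0.99 (adjusted p = 1.54e-05 in limma). CCN1, the sister gene of CCN2, fell from 383 ± 97.6 to 238 ± 19.7 FPKM, a log2 fold change of -0.65. The CCN1 call did not hold on TPM at -0.53, without GM replicate 1 at -0.50 or without GM replicate 2 at -0.58.

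The kinases and transcription factors that induce the set did not pass the call. Of 15 tested genes of the ERK, p38, JNK and SRF list, 0 were called in either direction. The shares of all tested genes were 4.90% called higher and 6.97% called lower. At an adjusted p under 0.05 whatever the size, 1 was higher and 5 were lower, beside 16.1% and 26.7% of all tested genes. SRF, the serum response factor of the FOS and EGR1 promoters, was at 16.9, 15.7 and 17.7 FPKM in GM and 13.04, 14.6 and 14.1 FPKM in DM. Its groups did not overlap, with a log2 fold change of -0.26 (adjusted p = 0.0137 in limma).

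Of 13 tested genes of the feedback list, 1 was called lower and 0 higher, beside 6.97% and 4.90% of all tested genes. The called gene was DUSP16, a phosphatase of JNK and p38, with 3.32 ± 0.366 FPKM in GM and 1.85 ± 0.207 in DM. Its log2 fold change of -0.60 was no longer past 1.5-fold with size factors at -0.55, without GM replicate 1 or 2 at -0.57 and -0.56, and without DM replicate 3 at -0.55. ZFP36, which binds AU-rich elements and speeds the decay of early gene mRNAs, was at 9.19, 8.20 and 8.32 FPKM in GM and 14.0, 14.3 and 11.7 FPKM in DM. The groups did not overlap, but the log2 fold change of 0.58 (adjusted p = 0.000865 in limma) was just under the rule, and it passed at 0.73 on TPM and at 0.64 with size factors. DUSP1, the ERK and p38 phosphatase that is itself an early gene, was at 60.8 ± 1.85 and 62.5 ± 3.98 FPKM. The EGR corepressors NAB1 and NAB2 were at 5.27 and 6.49 FPKM and at 14.3 and 16.04 FPKM on average, and neither was called.

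Within the MYC and MAX network, 1 of 11 tested genes was called lower and 0 higher, beside 6.97% and 4.90% of all tested genes. That gene was MXD3, a MAX partner found in dividing cells, at 0.983 ± 0.283 FPKM in GM and 0.119 ± 0.0141 FPKM in DM. It passed the filter only through its GM level, and with at least 0.5 FPKM required in all 6 libraries the list had 10 tested genes and 0 calls. MAX itself was at 13.5, 11.7 and 14.5 FPKM in GM and 11.8, 12.7 and 12.3 FPKM in DM with overlap of the groups. The relatives MYCN and MYCL stayed below the filter, with means of 0.236 and 0.0441 FPKM for MYCN and 0.215 and 0.467 FPKM for MYCL.

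Of 26 tested MYC target genes in ribosome biogenesis and growth, 2 were called lower and 0 higher, beside 6.97% of all genes called lower. At an adjusted p under 0.05 whatever the size, 12 were lower and 2 higher, beside 26.7% and 16.1% of all tested genes, and the median log2 fold change was -0.15 against -0.05 for all genes. CCND2, a D-type cyclin, fell from 33.5 ± 1.98 to 13.4 ± 0.323 FPKM (log2 fold change -1.26, adjusted p = 1.63e-06 in limma). FBL, the nucleolar methyltransferase fibrillarin, fell from 65.5 ± 5.74 to 43.0 ± 3.90 FPKM, a log2 fold change of -0.60. The FBL difference was under 1.5-fold on TPM at -0.48, with size factors at -0.53, and without GM replicate 3 at -0.53, DM replicate 1 at -0.56 or DM replicate 2 at -0.56.

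Among known targets of AP-1 and EGR1, genes were called in both directions. The shares of all tested genes were 4.90% called higher and 6.97% called lower. Of 11 tested AP-1 targets, 1 was called higher and 2 lower, with a median log2 fold change of -0.07. SPP1, the secreted phosphoprotein osteopontin, rose from 16.3 ± 4.56 to 44.3 ± 3.19 FPKM. The cytokine IL6 fell from 2.70 ± 0.254 to 0.561 ± 0.269 FPKM (not tested where 0.5 FPKM was required in every library), and the hyaluronan receptor CD44 fell from 97.6 ± 3.0 to 46.6 ± 2.10 FPKM. Of 9 tested EGR1 targets, 3 were called higher and 1 lower, with a median of -0.08. FN1, the matrix protein fibronectin, rose from 928 ± 24.4 to 4498 ± 256 FPKM (log2 fold change 2.27, adjusted p = 2.05e-07 in limma), F3, the coagulation factor called tissue factor, from 2.84 ± 0.126 to 6.07 ± 0.265 FPKM, and the growth factor FGF2 from 3.50 ± 0.667 to 6.09 ± 1.13 FPKM. Without GM replicate 3 or DM replicate 3 the FGF2 log2 fold change was 0.56 or 0.55 and under the rule. PDGFA, a platelet-derived growth factor chain, fell from 5.48 ± 0.308 to 2.97 ± 0.242 FPKM. On TPM the medians of the AP-1 and EGR1 target lists were 0.06 and 0.04, beside 0.06 for all genes.

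**Figure D5:**
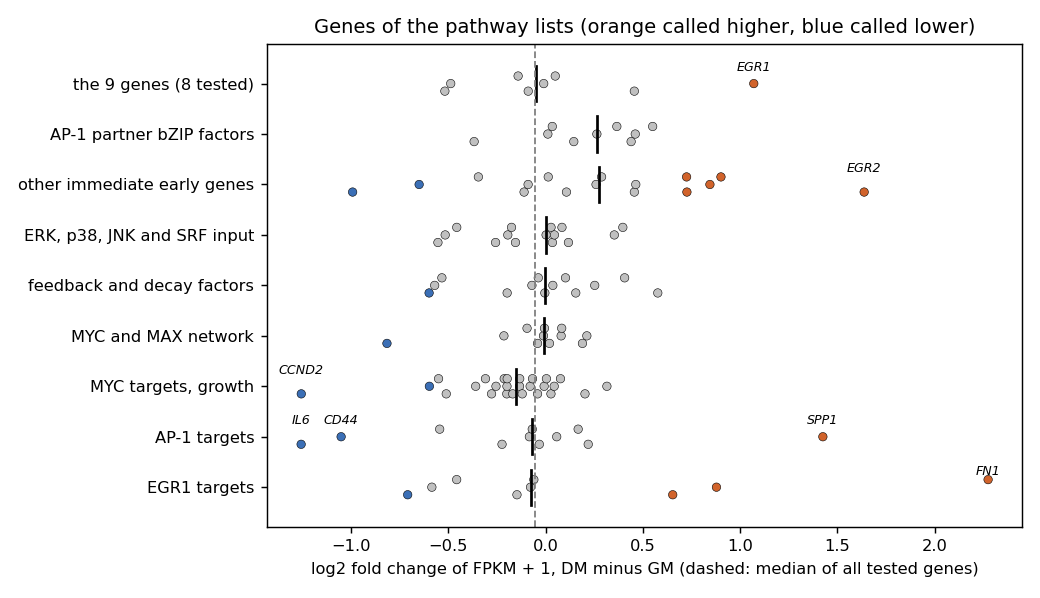
Log2 fold change of FPKM + 1, DM minus GM, of the tested genes of each list, with called genes in orange (higher) and blue (lower), other genes in grey, black bars at list medians and a dashed line at the median of all tested genes, -0.05. EGR1 at 1.07, EGR2 at 1.64, SPP1 at 1.43 and FN1 at 2.27 are the called genes farthest to the right in their lists.

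In m6A, each pair of the EGR1 relatives EGR2 and EGR3 had a lower fold enrichment in DM. Of 23 pairs of the other immediate early genes, 7 were over 1.5 times lower and 1 higher in DM, beside 10.8% and 14.2% of all pairs, and 3 of the 7 were peaks of EGR3. The EGR3 pairs had log2 ratios of -1.54, -0.71 and -1.71, the largest going from a fold enrichment of 8.71 to 2.66. The EGR2 pairs went from 3.48 to 1.64 and from 5.68 to 4.44. NR4A3 went from 12.0 to 6.47 and 1 of the NR4A1 pairs from 5.88 to 3.76. The means of EGR2, EGR3, NR4A1 and NR4A3 lay between 0.684 and 6.08 FPKM in both groups. The remaining lower pair belonged to the abundant CCN2, from 1.89 to 1.17. Pairs of the same gene are not independent.

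In the other lists, between 0 and 3 m6A pairs were over the threshold in each, beside 14.2% of all pairs higher and 10.8% lower. In the AP-1 partner list 2 of 6 pairs were lower, MAF from 7.62 to 2.93 and MAFK from 3.70 to 2.25. In the ERK, p38, JNK and SRF list 3 of 12 were lower, with MAPK8, the kinase JNK1, going from 22.9 to 4.6 and 1 of the 4 SRF pairs from 3.63 to 1.72. The feedback list had 1 of 12 pairs in each direction, both of DUSP16. The MYC and MAX network had 1 of 10 higher, MXD3 from 3.81 to 10.6 at a DM level of 0.119 FPKM, and 2 lower. Among MYC targets 1 of 18 was higher, RRP9 from 7.08 to 13.8, among EGR1 targets 2 of 11 were higher, with F3 going from 2.79 to 5.35, and among AP-1 targets 0 of 6 were over the threshold, the largest log2 ratio being -0.30 for ITGA5.

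The genes most like FOS, JUN, EGR1 and MYC across the 6 input libraries were found by Pearson r of log2(FPKM + 1), given as a description because all values share the same 6 libraries and 2 groups. FOS was closest to SEMA7A, SKI and ZC3H3, with r of 0.995, 0.994 and 0.983. JUN was closest to STK40, RRM2 and NPM1 (r of 0.998, 0.996 and 0.995), of which RRM2, the ribonucleotide reductase subunit of S phase, went from 26.0 to 4.61 FPKM and NPM1, a nucleolar protein, from 390 to 303 FPKM. EGR1 was closest to NFKBIZ, TNFAIP3 and SPACA6 (r of 0.995, 0.993 and 0.993), the first and second of which are known as genes induced by NF-kappaB signalling. MYC was closest to TMEM161B, PIGN and SCMH1, with r of 0.9754, 0.974 and 0.974.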

How the data were processed

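Poly(A) RNA of 3 GM and 3 DM cultures was sequenced strand-specifically as input and m6A IP. The authors aligned reads to ARS-UCD1.2 with HISAT2 and made the deposited FPKM of the 6 inputs with StringTie. The methods name Trimmomatic for trimming and the submitters' processing notes cutadapt and fastp. The deposited peak lists, 1 per group, came from the authors' exomePeak run, with fold enrichment as a linear ratio of IP over input, an unadjusted p-value, a score that repeats that p-value, and log10 columns of the p-value and false discovery rate. A peak has no error. How libraries were scaled for peak calling is not given in the sources used here.

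limma 3.58.1 in R 4.3.3 was fitted to genes averaging 0.5 FPKM or more, on log2(FPKM + 1) with a variance trend. Counts were not used here, so the study's count test was replaced. Calls needed p under 0.05 and over 1.5-fold, the study's thresholds, and Benjamini-Hochberg adjustment ran over 12302 genes. In simulated data for DM against GM, 99.5% of 200 changed genes among 12302 were recovered and 25 unchanged genes were called. The differences put into these data were at least 1 in size on the log2 scale. Recovery of smaller differences, near 1.5-fold, was not tested. Peaks were paired in Python 3.11.15 with pandas 2.3.3. Of every list, called genes were named up to 4 per direction by size, as well as relatives of the 9 genes; CCN2 and pairs beyond the largest of a list were named after their values were seen. Genes and lists were chosen with earlier results of these data known. The RefSeq gene table (another assembly) gave names only, and no sequence is printed. A result for 1 listed gene is not reported here.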

Additional observations from a re-analysis of the deposited data

How the results depend on the processing

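Of the 9 genes, 1 was called in the main comparison, 2 on TPM (FOS and EGR1), and 1 to 3 when a library was left out, the 3 without DM replicate 3 (FOS, FOSL1 and EGR1) and 2 without GM replicate 1 (FOS and EGR1). Every other setting gave 1, EGR1. Its log2 fold change stayed between 0.91 and 1.33 over 16 alternatives, with adjusted p from 0.000466 to 0.0205. FOS ranged from 0.28 to 0.66 with adjusted p from 0.0136 to 0.254, FOSL1 from -0.63 to -0.30, JUN from -0.57 to -0.40 without ever being called, and MYC from -0.21 to -0.02. Signs turned for FOSL2 with size factors (0.053), on TPM (0.11) and without DM replicate 2 (0.015), its values with a library left out running from -0.037 to 0.015, and for JUNB on TPM (0.035). Over all genes, 1461 were called, and 507 at a fold change over 2. The other settings stayed within 1.5 times, from 1257 with at least 0.5 FPKM in all 6 libraries to 2014 with a pseudocount of 0.1. TPM turned 603 higher and 858 lower calls into 970 and 792. For m6A, 2 of the pairs of the 9 genes passed 1.5-fold, 1 after centring on the median of all pairs (FOS at 0.55 on the log2 scale, against 0.62) and 1 at a change over 2. Over all pairs, 2562 passed, and 1029 at a change over 2.

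Same-numbered replicates did not deviate together (r of -0.08, -0.12 and -0.21 over 12302 genes), so the numbers are not taken to pair the cultures. The replicate block gave 1473 called genes in place of 1461 and the same 1 of the 9, EGR1. The depth behind single FPKM values and peaks is unknown.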
